A study of Rattus norvegicus with 10 samples.

Results

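Insulin, glucagon and somatostatin leave islet cells from dense-core secretory granules, where their precursors are cut and trimmed to the mature hormones. The genes described here build and load those granules. They are Pcsk1, Pcsk2 and Cpe, which encode enzymes that process prohormones, Scg5, which encodes a chaperone of the Pcsk2 convertase, the granins Chga, Chgb, Scg2 and Scg3, and the granule membrane proteins Ptprn and Ptprn2. Members were all probe sets whose annotation names 1 of these 10 genes and no other gene. The rule found 9 probe sets, 1 for each of 9 genes, among the 31042 probe sets tested and the 14217 genes that have such a probe set, and Pcsk1 was not analysed here.

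The data are 10 expression arrays of pancreatic islets isolated from fasted male rats, per the labels' protocols, at 40 days of age. The 5 groups, with 2 arrays each, were DR+/+, JBlyp/lyp, JB, F344lyp and F344. DR+/+ and JB rats are labelled as resistant to diabetes unless it is induced and carry no mutation at the lyp locus, whereas JBlyp/lyp rats are labelled diabetes prone and are homozygous for it. F344lyp and F344 rats are healthy controls of another strain, and the labels' protocols write the first as F344lyp/lyp and name DRlyp/lyp where the sample labels have JBlyp/lyp. The lyp mutation lies in Gimap5 and removes most T cells, and BB (BioBreeding) rats that carry it develop autoimmune diabetes. The growth protocol derives DR+/+ and JBlyp/lyp animals from DRlyp/+ parents and does not describe the JB line. The sample titles call the 2 arrays of a group biological replicates. Neither the number of animals per array nor any pooling is stated. A p-value here therefore weighs a difference against the spread of the samples as hybridised, and how far that is the spread between animals is not known.

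In beta cells the convertases Pcsk1 and Pcsk2 cut proinsulin after pairs of basic residues and carboxypeptidase E, the product of Cpe, removes those residues. In alpha cells Pcsk2 makes glucagon from its precursor, and the Scg5 product, also called 7B2, is needed for Pcsk2 to become active. Granins are acidic proteins that gather in the granule core and help to form it. Ptprn (IA-2) and Ptprn2 (phogrin, IA-2β) span the granule membrane and are targets of autoantibodies in human type 1 diabetes.

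The DR+/+ arrays stood apart from the other 8. Over all probe sets they correlated at 0.914 to 0.943 with arrays of other groups, while replicates of 1 group correlated at 0.981 to 0.997 and arrays of different groups without DR+/+ at 0.954 to 0.992. Insulin signal was high on every array, with Ins1 between 13.86 and 14.27 and Ins2 between 13.42 and 13.98 on the log2 scale. The array control for the 3′ end of Gapdh read 8.85 on each DR+/+ array and 9.89 to 11.48 on the rest. That for the 3′ end of β-actin read 8.65 and 8.87 in DR+/+ and 9.72 to 10.84 on the rest. The difference between the 3′ and 5′ Gapdh controls, a measure of how far labelling reached along the transcript, was 3.18 and 3.39 in DR+/+, 2.75 and 2.97 in JBlyp/lyp, 3.71 and 3.31 in JB, 2.20 and 2.19 in F344lyp, and 2.43 and 2.35 in F344. The same measure from the β-actin controls ranked the groups otherwise, at 2.57 and 2.86 in DR+/+, 3.43 and 3.30 in JBlyp/lyp, 4.17 and 3.40 in JB, 2.72 and 2.77 in F344lyp, and 3.06 and 2.95 in F344. Every comparison below that averages over groups is therefore given with and without the DR+/+ arrays.

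**Figure D1:**
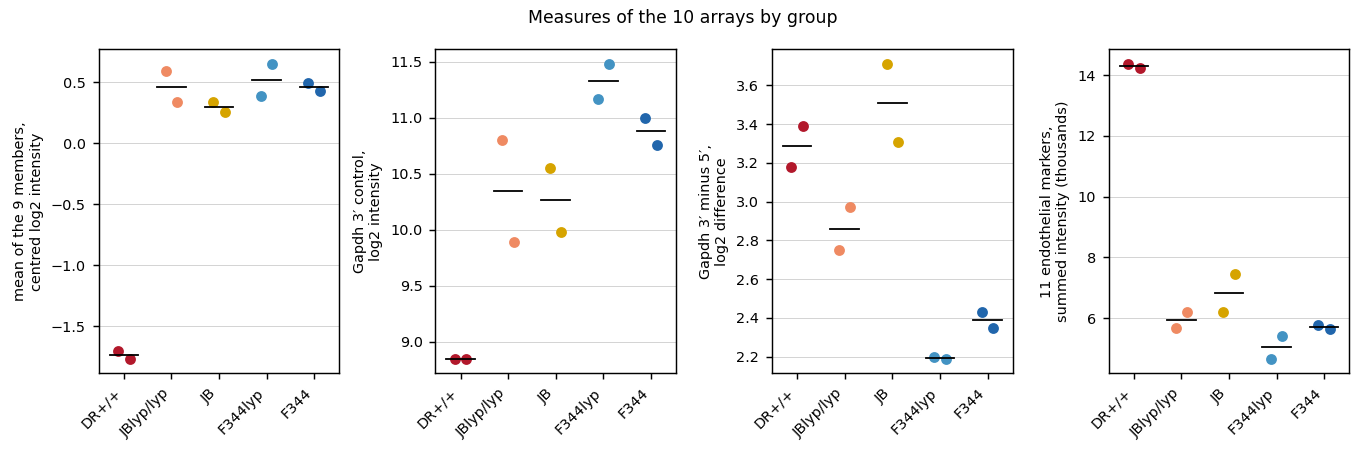
Measures of each array by group in 4 panels, with points for arrays and a black line for the mean of the 2. The panels give the mean of the 9 granule probe sets after each was centred on its own mean (log2), the 3′ Gapdh control (log2 intensity), the 3′ minus 5′ Gapdh difference (log2), and the summed linear intensity of 11 endothelial markers, scaled as its axis states. DR+/+ arrays have the lowest member mean and 3′ Gapdh signal and the highest endothelial sum, while the largest 3′ minus 5′ difference is that of a JB array.

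All values below are log2 RMA intensities, and differences between groups are log2 differences with their standard error (SE). RMA values of different probe sets are not on 1 common scale, so levels are compared between groups for 1 gene and not between genes. In whole islets, fewer cells of a type and less RNA per cell cannot be told apart.

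The lowest granule gene signals were in DR+/+ islets. Against JB islets, which share the labelled description, 8 of the 9 probe sets were lower and 0 higher at an adjusted p under 0.05, with Cpe as the exception, and the falls ran from 1.64 for Scg2 to 3.06 for Pcsk2. Over all probe sets 15.4% were called lower and 13.0% higher in this comparison. All 9 members had both DR+/+ arrays below both JB arrays, as did 33.2% of all probe sets. The median difference of the 9 was -2.08, against -0.02 over all probe sets, and 1.15% of all probe sets lay below -2.

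Pcsk2, the convertase, read 8.49 and 8.57 in DR+/+ islets, 12.22 and 11.81 in JBlyp/lyp, 11.62 and 11.57 in JB, 11.98 and 12.26 in F344lyp, and 12.14 and 12.05 in F344. Its signal was thus low in 1 group, and of the other groups JB lay lowest, below all arrays of the remaining 3, while the JBlyp/lyp, F344lyp and F344 arrays overlapped. Pcsk2 fell by 3.06 in DR+/+ against JB (SE 0.17, 8.35-fold lower, adjusted p = 6.17e-06, limma with Benjamini-Hochberg) and by 3.56 in DR+/+ against F344 (SE 0.17, adjusted p = 1.96e-06).

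Scg5, the chaperone of the convertase Pcsk2, read 10.67 and 10.54 in DR+/+, 13.02 and 12.63 in JBlyp/lyp, 12.77 and 12.50 in JB, 12.51 and 12.81 in F344lyp, and 12.22 and 12.07 in F344. The order of its group means was DR+/+, F344, JB, F344lyp and JBlyp/lyp, and the arrays of the last 3 overlapped. Scg5 fell by 2.02 in DR+/+ against JB (SE 0.18, adjusted p = 3.92e-05).

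Cpe, the carboxypeptidase, did not share this pattern. It read 13.42 and 13.38 in DR+/+, 13.73 and 13.84 in JBlyp/lyp, 13.71 and 13.77 in JB, 13.00 and 13.49 in F344lyp, and 13.66 and 13.45 in F344. The DR+/+ arrays lay below the JB arrays but above 1 of the F344lyp arrays, and the difference from JB was -0.33 (SE 0.17, 95% interval -0.72 to 0.05, adjusted p = 0.189). The brightest probe set of each array read 14.12 to 14.37, so that Cpe, like the insulin genes, was near the top of the measured range, and whether its signal was saturated was not tested. Ins1 differed by -0.33 between DR+/+ and JB (adjusted p = 0.0674) and Ins2 fell by 0.48 (adjusted p = 0.0182).

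Among the granins, Chga, the chromogranin that is cut to several regulatory peptides, read 9.17 and 9.08 in DR+/+, 12.15 and 11.53 in JBlyp/lyp, 11.94 and 11.52 in JB, 11.61 and 11.94 in F344lyp, and 12.03 and 11.91 in F344. The arrays of the other 4 groups overlapped, and the order of those groups was within the spread between replicates. Chga fell by 2.61 in DR+/+ against JB (SE 0.22, 6.10-fold lower, adjusted p = 3.13e-05).

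Chgb, the second chromogranin, read 9.38 and 9.36 in DR+/+, 11.43 and 11.45 in JBlyp/lyp, 11.58 and 11.18 in JB, 10.71 and 10.83 in F344lyp, and 10.80 and 10.84 in F344. Its levels formed 3 tiers, with DR+/+ lowest, both F344 groups in the middle and both JB groups highest. Within the upper tier and within the middle tier the arrays overlapped. Chgb fell by 2.01 in DR+/+ against JB (SE 0.15, adjusted p = 1.77e-05).

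Scg2, the precursor of the neuropeptide secretoneurin, read 11.02 and 10.75 in DR+/+, 12.68 and 12.64 in JBlyp/lyp, 12.50 and 12.55 in JB, 12.28 and 12.71 in F344lyp, and 12.26 and 12.23 in F344. Scg3, which binds Chga and cholesterol-rich granule membrane, read 9.98 and 10.03 in DR+/+, 12.19 and 11.80 in JBlyp/lyp, 12.17 and 12.00 in JB, 11.53 and 11.62 in F344lyp, and 11.81 and 11.69 in F344. Both had DR+/+ below all 8 other arrays. In DR+/+ against JB, Scg2 fell by 1.64 (SE 0.17, adjusted p = 8.36e-05) and Scg3 fell by 2.08 (SE 0.16, adjusted p = 1.76e-05).

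The membrane proteins showed a graded pattern. Ptprn2 read 6.95 and 6.91 in DR+/+, 9.46 and 9.08 in JBlyp/lyp, 9.15 and 8.94 in JB, 11.08 and 11.13 in F344lyp, and 10.68 and 10.90 in F344. Ptprn read 7.62 and 7.54 in DR+/+, 10.46 and 10.26 in JBlyp/lyp, 9.60 and 10.30 in JB, 10.78 and 11.06 in F344lyp, and 10.84 and 10.76 in F344. For both genes all 6 arrays of the BB-related groups lay below all 4 arrays of the F344 groups, which held for 7.27% of all probe sets, and DR+/+ lay below both JB groups. Ptprn2 fell by 2.12 in DR+/+ against JB (SE 0.16, adjusted p = 1.85e-05) and Ptprn fell by 2.37 (SE 0.22, adjusted p = 4.44e-05).

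**Figure D2:**
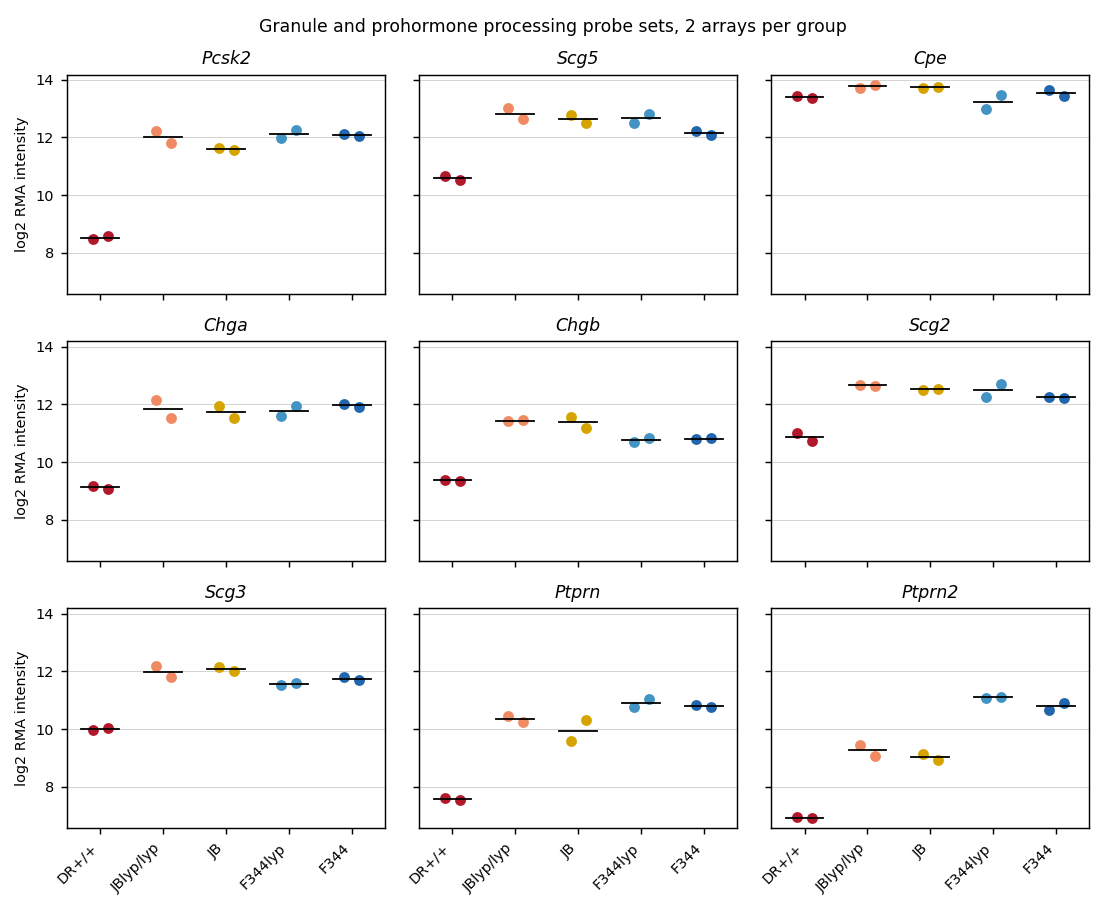
Log2 RMA intensity of the 9 probe sets (vertical axis, shared by all panels) in the 5 groups, with a point for each array and a black line for the mean of the 2 arrays. The DR+/+ points lie below all others in every panel except Cpe, and Ptprn2 separates into DR+/+, JB and F344 levels.

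Across the 8 arrays without DR+/+, the distance from the lowest to the highest array was 0.48 for Scg2, 0.62 for Chga, 0.67 for Scg3, 0.69 for Pcsk2, 0.84 for Cpe, 0.87 for Chgb and 0.95 for Scg5. It was wider for the membrane proteins, at 1.46 for Ptprn and 2.18 for Ptprn2. With DR+/+ the distance was 1.96 to 4.22 for the 8 genes other than Cpe.

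Promoter sequences of the members are described here. They came from a set of promoters of RefSeq genes (build GRCr8, 250 bases before to 50 after the annotated start), which held 8 of the 9 genes. Chga, whose identifier matched RefSeq, had no entry in that set. The cyclic AMP response element TGACGTCA and the shorter TGACG, which the full element contains on each strand, were searched on both strands. The shorter motif was present in 6 of 8 promoters, against 21.2% of 33469 promoters of the same length, and the full element in 1, that of Scg2, against 1.83%. Capitals mark each match, read as CGTCA where it lies on the other strand, with 15 bases on either side.
Pcsk2 (chr3:151333866-151333900, plus strand): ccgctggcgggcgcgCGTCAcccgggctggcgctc
Scg5 (chr3:121042762-121042817, minus strand): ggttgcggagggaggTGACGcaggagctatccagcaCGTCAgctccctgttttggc
Cpe (chr16:29796519-29796553, plus strand): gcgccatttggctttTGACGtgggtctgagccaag
Scg2 (chr9:88256967-88257004, minus strand): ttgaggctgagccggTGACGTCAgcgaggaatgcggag
Scg3 (chr8:85322534-85322568, minus strand): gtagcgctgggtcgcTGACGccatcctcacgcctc
Ptprn (chr9:84204935-84205006, minus strand): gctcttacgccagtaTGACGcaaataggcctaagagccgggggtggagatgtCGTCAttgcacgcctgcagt
The full element of Scg2 begins 123 bases before the start. Cpe, whose signal was not called lower in DR+/+, holds a match 173 bases before its start, and the windows of Chgb and Ptprn2 hold no such letters. A match is a description of the letters and not a measured site. The part of these letters in the DR+/+ differences was not tested.

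Other genes of the granule were lower in DR+/+ islets too. Of 23 measured genes for further granule cargo and membrane proteins, 15 were lower in DR+/+ than in JB and 0 higher, with a median of -1.03 against -0.04 over all genes. Counted once per gene, 18.4% of all genes were called lower and 15.5% higher. Resp18, a granule protein of endocrine cells, fell by 3.55 (SE 0.30, adjusted p = 3.17e-05) and Pcsk1n, the proSAAS inhibitor of Pcsk1, fell by 3.41 (SE 0.36, adjusted p = 0.000104). Atp6v1b2, a subunit of the proton pump that acidifies granules, fell by 2.13 and Cltrn, the beta cell membrane protein collectrin, fell by 1.85.

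Of 40 measured genes for granule docking and exocytosis, 23 were lower in DR+/+ than in JB and 2 higher, with a median of -0.68. Syt4, a synaptotagmin of dense-core granules, fell by 2.28 (SE 0.21, adjusted p = 4.52e-05), Gnas, the stimulatory G protein subunit, fell by 2.21, Rab3c, a small GTPase of secretory vesicles, fell by 1.98 and Cadps, a priming factor for dense-core granules, fell by 1.82. The 2 higher genes, named after their values were seen, were Cadps2, a paralog of Cadps, at 1.71 (adjusted p = 8.66e-05) and the small GTPase gene Rab27b at 1.43 (adjusted p = 0.00562). Among 16 other processing enzymes and their inhibitors the directions were mixed, with 7 lower, 4 higher and a median of -0.14. Carboxypeptidase D, encoded by Cpd, fell by 1.87 and the disulfide oxidase gene Ero1b fell by 1.51, while Pcsk6, a convertase of the constitutive secretory route, rose by 1.83 (SE 0.14, adjusted p = 1.99e-05). The inhibitor Pcsk1n is counted in both the cargo and the enzyme list.

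**Figure D3:**
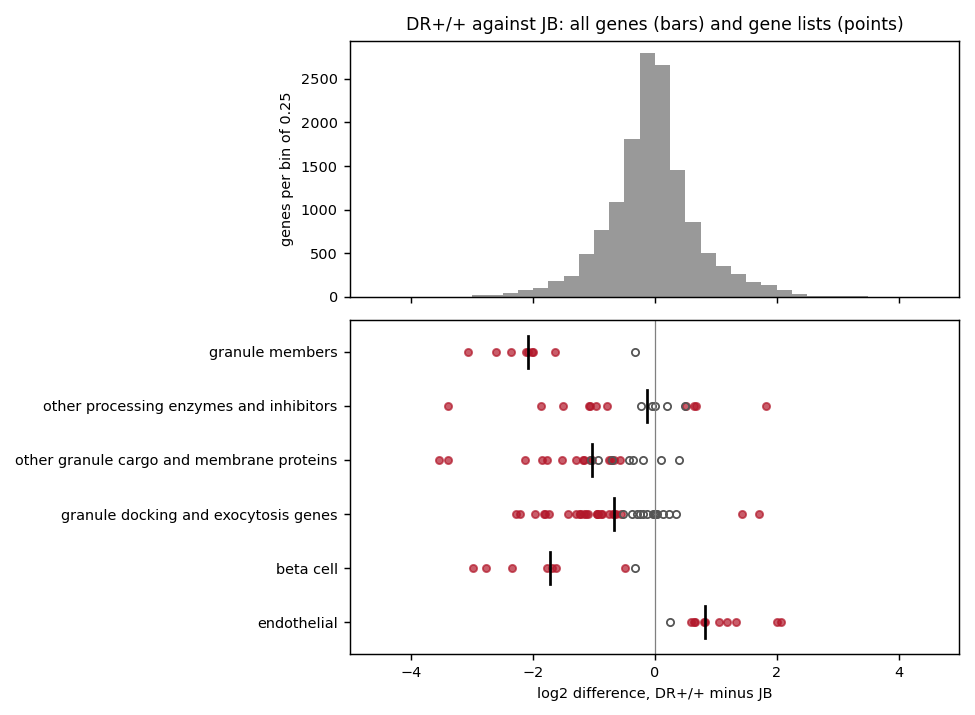
Log2 differences of DR+/+ minus JB. The upper panel counts all genes, 1 probe set each, in bins of 0.25, and the lower panel shows the genes of 6 lists, with red points for an adjusted p under 0.05, open points for the rest and a black bar at the list's median. The 9 members have a median of -2.08, the cargo list -1.03, the exocytosis list -0.68 and the endothelial list 0.82.

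Markers of cell types moved with these differences. In DR+/+ against JB, 7 of 8 measured beta cell markers were lower, with a summed linear intensity of 29500 to 30300 in DR+/+ and 51300 to 52700 in JB. Of 8 alpha, delta and PP cell markers, 6 were lower and 2 higher, with sums of 6860 to 7070 in DR+/+ and 23800 to 26600 in JB. The hormone gene Gcg fell by 1.97 and Sst fell by 2.23. Endothelial markers were higher in 10 of 11 cases, with sums of 14200 to 14400 in DR+/+ and 6190 to 7460 in JB. Of 12 stellate, fibroblast and mesothelial markers, 9 were higher and 1 lower, with sums of 14000 to 14300 and 12900 to 13100, and of 12 ductal markers 6 were higher and 0 lower. Acinar markers were lower in 15 of 20 cases, with sums of 28900 to 29300 in DR+/+ and 61300 to 77500 in JB. The nerve and Schwann list, whose cells also use granins, had 1 higher and 2 lower of 12, and the macrophage and T cell list 3 higher and 2 lower of 14. No marker reads 0 on the RMA scale, so absence of a cell type cannot be read from it. The part of these cell types in the granule gene differences was not tested.

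Against F344 islets, the healthy controls without lyp, 8 of the 9 members were again lower in DR+/+ and 0 higher, where 17.3% of all probe sets were called lower and 15.6% higher. This comparison shares the DR+/+ arrays with the one above. The falls ran from 1.36 for Scg2 to 3.86 for Ptprn2 (SE 0.16, 14.5-fold lower, adjusted p = 1.53e-06), and Cpe differed by -0.15 (SE 0.17, adjusted p = 0.55). Ptprn fell by 3.22, Chga fell by 2.84, Scg3 fell by 1.75, Scg5 fell by 1.54 and Chgb fell by 1.44. The cargo list had 16 of 23 genes lower and 0 higher, with 23.8% of all genes called lower and 16.3% higher, and the exocytosis list 21 of 40 lower and 1 higher. Here too cell type markers moved with the granule genes. Beta cell markers were lower in 8 of 8 cases, alpha, delta and PP markers lower in 6 of 8 and higher in 1, acinar markers lower in 20 of 20, and nerve and Schwann markers lower in 7 of 12 and higher in 2. Endothelial markers were higher in 8 of 11 cases and lower in 1, and stellate, fibroblast and mesothelial markers higher in 9 of 12 and lower in 2. Their part in these differences was not tested.

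The 3′ minus 5′ differences of the control probe sets were used as covariates in alternatives added after the data were seen. Each group keeps its own mean in these fits, so the slope of a covariate comes only from the gap between the replicates of a group. The sizes that remain therefore cannot show the part of labelling in the differences between groups. With the Gapdh measure 2 members passed in DR+/+ against F344, where 0.132% of all probe sets were then called lower. Pcsk2 was at -3.38, Ptprn2 at -3.76, Chga at -2.88, Scg3 at -1.73 and Scg5 at -1.54. Chgb was at -1.97, against -1.44 without the covariate. Scg2 was at -1.05 and Ptprn, the member that shrank most, at -2.05. With the β-actin measure 8 members were lower against F344, where 9652 of 31042 probe sets were called in either direction. With either measure 8 were lower against JB. Of 31042 probe sets, 6103 were then called in either direction with the Gapdh measure and 2923 with the β-actin measure.

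The JB groups were compared with F344 groups of the same lyp genotype, in comparisons whose groups share no array. The spread in both was estimated from all 10 arrays, DR+/+ included, so their p-values are not independent. In JBlyp/lyp against F344lyp 1 member was higher and 1 lower, where 6.57% of all probe sets were called higher and 7.55% lower. In JB against F344 1 was higher and 2 lower, where 6.23% were called higher and 5.35% lower. The members called were the membrane proteins, lower, and Chgb, higher. Ptprn2 fell by 1.83 in JBlyp/lyp against F344lyp (SE 0.16, 3.57-fold lower, adjusted p = 0.000119) and by 1.74 in JB against F344 (SE 0.16, 3.35-fold lower, adjusted p = 0.00025). Without any 1 of the 10 arrays the first difference stayed between -2.02 and -1.64 and the second between -1.85 and -1.63, and each passed in all 10 fits.

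Ptprn differed by -0.56 in JBlyp/lyp against F344lyp (SE 0.22, adjusted p = 0.122) and fell by 0.85 in JB against F344 (SE 0.22, adjusted p = 0.0327), a call that ended in 7 of 10 fits with 1 array left out, with differences from -1.20 to -0.50. The smallest, -0.50, was that without JB replicate 1. Chgb rose by 0.67 in JBlyp/lyp against F344lyp (SE 0.15, 1.59-fold higher, adjusted p = 0.0195) and by 0.56 in JB against F344 (SE 0.15, 1.48-fold higher, adjusted p = 0.0421). The first of these Chgb calls ended in 3 of 10 fits with 1 array left out and the second in 7, at adjusted p values of up to 0.0962 and 0.24. With quantile normalization repeated, the members called were 2 higher and 1 lower in JBlyp/lyp against F344lyp and 0 higher and 3 lower in JB against F344. Of all probe sets, 6.34% were then called higher and 7.22% lower in the first and 5.99% and 6.42% in the second. With the Gapdh covariate 0 members were called in either comparison, with Ptprn2 at -1.76 (adjusted p = 0.148) and -1.62 (adjusted p = 0.999). That fit called few probe sets of any kind, 103 of 31042 in the first comparison and 1 of 31042 in the second. With the β-actin covariate Ptprn2 alone was called, at -1.99 (adjusted p = 0.00148) and -1.94 (adjusted p = 0.00766), where 6.07% and 2.21% of all probe sets were called lower.

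Other members were not called. Scg3 differed by 0.42 and 0.34 in the comparison with and the comparison without lyp (adjusted p = 0.111 and 0.225), Cpe by 0.54 and 0.18 (adjusted p = 0.0676 and 0.587), Scg5 by 0.16 and 0.49 (adjusted p = 0.611 and 0.124), Scg2 by 0.16 and 0.28 (adjusted p = 0.568 and 0.357), Pcsk2 by -0.10 and -0.50 (adjusted p = 0.734 and 0.0883) and Chga by 0.06 and -0.23 (adjusted p = 0.892 and 0.585). In JB against F344, 5 members had both JB arrays above both F344 arrays and 3 had them below, while 29.9% and 28.0% of all probe sets did so.

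**Figure D4:**
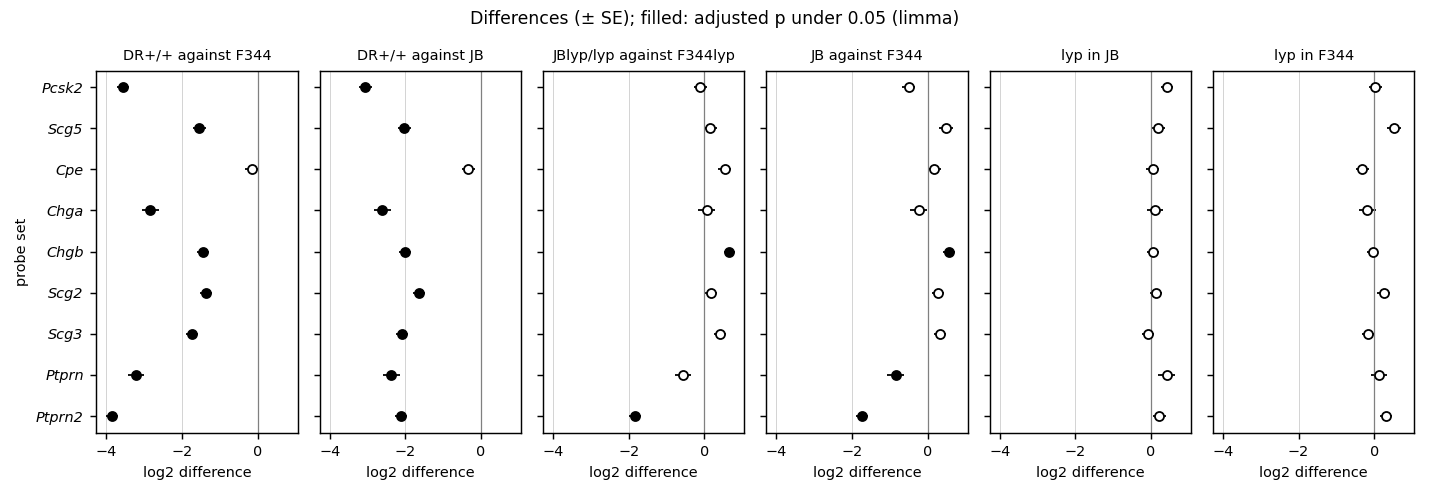
Log2 differences of the 9 probe sets (horizontal axis) in 6 comparisons, with bars of 1 SE and filled points for an adjusted p under 0.05. Outside the 2 DR+/+ panels, the filled points are Ptprn2 and Chgb in both JB comparisons and Ptprn in JB against F344, and the 2 lyp panels have none.

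A few further genes of the pathway were called the same way in both of these comparisons. Cpd, a carboxypeptidase of the trans-Golgi network, rose by 1.55 in JBlyp/lyp against F344lyp and by 1.40 in JB against F344 (adjusted p = 0.00483 and 0.0092). Pam, which amidates peptide ends in the granule, rose by 0.71 and 0.69 (adjusted p = 0.0393 and 0.0496), and Cadps rose by 0.71 and 0.86 (adjusted p = 0.0257 and 0.0128). Npy, the neuropeptide Y precursor, fell by 1.20 and 1.19 (adjusted p = 0.019 and 0.0222), and Rbp4, a retinol carrier counted with the granule cargo, fell by 1.09 and 0.91 (adjusted p = 0.0169 and 0.0399). Nucb2, the precursor of nesfatin-1, is in the enzyme list and fell by 0.59 and 0.61 (adjusted p = 0.0199 and 0.0206). Cplx2, a complexin that regulates vesicle fusion, rose by 1.25 with lyp (adjusted p = 0.0239), where Rab27b fell by 1.14 and Syt13 fell by 0.68. The enzyme list had 2 higher and 2 lower of 16 with lyp and 2 higher and 1 lower without it, the cargo list 0 higher and 2 lower of 23 with lyp and 0 higher and 3 lower without it, and the exocytosis list 4 higher and 2 lower of 40 with lyp and 3 higher and 5 lower without it. Of all genes, 4.70% were called higher and 11.3% lower with lyp, and 4.79% and 8.22% without it.

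Acinar markers moved with the strain, lower in 20 of 20 cases with lyp and in 19 of 20 without it. Their sums were 50100 to 79000 in JBlyp/lyp and 206000 to 238000 in F344lyp, and 61300 to 77500 in JB and 151000 to 172000 in F344. Macrophage and T cell markers were lower in 9 of 14 cases with lyp and 7 without it, and ductal markers in 5 and 4 of 12. Of 12 nerve and Schwann markers, 1 was higher and 0 lower with lyp, with sums of 1370 to 1540 in JBlyp/lyp and 1560 to 1680 in F344lyp. Without lyp 7 were lower and 0 higher, with sums of 1030 to 1080 in JB and 2520 to 2560 in F344. Beta cell marker sums were 54000 to 55100 in JBlyp/lyp and 47800 to 53800 in F344lyp, and 51300 to 52700 in JB and 53000 to 55400 in F344. The part of these cell types in the Ptprn2, Ptprn and Chgb differences was not tested.

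The mean of the 3 BB-related groups set against the mean of the 2 F344 groups asks whether BB islets differ from non-BB islets. In it 7 of 9 members were lower and 0 higher, where 17.0% of all probe sets were called lower and 16.2% higher, with Ptprn2 at -2.53 (SE 0.11, adjusted p = 4.39e-07), Ptprn at -1.56 (SE 0.14, adjusted p = 4.39e-05) and Pcsk2 at -1.39 (SE 0.11, adjusted p = 2.14e-05). Chga fell by 0.97 (adjusted p = 0.000764), and Scg5, Scg2 and Scg3 fell by 0.38, 0.35 and 0.30. Without the DR+/+ arrays 2 members were lower and 2 higher, where 11.6% of all probe sets were called lower and 11.5% higher. Ptprn2 fell by 1.79 (adjusted p = 5.48e-05) and Ptprn fell by 0.70 (adjusted p = 0.0158), while Chgb rose by 0.62 (adjusted p = 0.00615) and Scg3 rose by 0.38 (adjusted p = 0.0494). Pcsk2 then differed by -0.30 (adjusted p = 0.119) and Chga by -0.09 (adjusted p = 0.754). With the 5 groups as a random block, which brings the spread between groups of 1 side into the error, Ptprn2 alone passed (adjusted p = 0.0297). Of all probe sets 1.38% were then called higher and 1.71% lower. Groups that share a background, such as F344lyp and F344, counted as separate blocks, so this p does not weigh the spread between strains.

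The effect of lyp was compared on each background, with groups matched by their sample labels. The growth protocol derives JBlyp/lyp animals from the same DRlyp/+ parents as DR+/+ and does not describe the JB line. In JBlyp/lyp against JB, lyp and any difference of line can therefore not be told apart. JBlyp/lyp was not tested against DR+/+. On the JB background 0 of 9 members were called in JBlyp/lyp against JB by limma, where 0.00322% of all probe sets were called, and 1 member had an unadjusted p under 0.05, as did 6.23% of all probe sets. That member was Pcsk2, at 0.42 (95% interval 0.05 to 0.80, unadjusted p = 0.0305, adjusted p = 0.762). On the F344 background 0 of 9 were called in F344lyp against F344, where 1.51% of all probe sets were called, and 1 had an unadjusted p under 0.05, as did 15.6% of all probe sets. It was Scg5, at 0.52 (95% interval 0.11 to 0.92, unadjusted p = 0.0176, adjusted p = 0.208). With the groups compared fitted alone its adjusted p was 0.0442, where 6.64% of all probe sets were called higher and 3.76% lower. The JBlyp/lyp arrays lay above the JB arrays for Pcsk2 and Scg2 and below for 0 members, while 13.9% and 15.9% of all probe sets did so. The F344lyp arrays lay above the F344 arrays for Scg2, Scg5 and Ptprn2 and below for Scg3, while 27.8% and 28.4% of all probe sets did so. Ptprn2 differed by 0.23 for lyp in JB (95% interval -0.14 to 0.59) and by 0.32 in F344 (95% interval -0.05 to 0.68), so that changes of the size seen between strains lie outside both intervals. The difference between the lyp effects of the JB and F344 backgrounds was called for 0 of 9 members, 0 of them at an unadjusted p under 0.05, where 0.283% of all probe sets were called and 7.63% had such a p, with values from -0.32 for Scg5 to 0.39 for Pcsk2.

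The genes most like the members in profile were found by correlation with the mean of the 9 centred probe sets over the 10 arrays, among 9685 other genes brighter than the median probe set. They were Pklr, a pyruvate kinase gene (r = 0.998), Trh, the precursor of thyrotropin-releasing hormone (r = 0.996), Prkar1b, a regulatory subunit of protein kinase A (r = 0.996), Limch1 (r = 0.996) and Shisal1 (r = 0.995). The DR+/+ arrays set these correlations. Trh averaged 6.54 in DR+/+ and 9.77 to 10.66 on the other arrays, and Pklr averaged 5.45 in DR+/+ and 7.65 to 8.01 elsewhere.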

How the data were processed

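Islet RNA of 10 rat samples in 5 groups was labelled with biotin and hybridised to 1 array each, per the labels' protocols. The deposited log2 intensities came, per the submitters' processing notes, from GCOS and RMA, whose versions no source used here gives. Of 31099 probe sets, 57 controls were set aside and 31042 tested. Array medians lay between 5.39 and 5.44, and the number of arrays limits the precision.

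All probe sets were fitted together, each group having its own mean, in limma 3.58.1 in R 4.3.3 (5 residual and 4.72 prior degrees of freedom), and the 8 comparisons were contrasts of these means. A probe set counted as called where its two-sided p, adjusted by Benjamini-Hochberg over all probe sets, was under 0.05. Symbols came from the array's annotation (20826 probe sets with 1 symbol, 436 with several, 9780 with none), and the identifiers of 9 of 9 members matched RefSeq (GRCr8). In the lists each gene is represented by its brightest probe set (14217 genes). The model was tested on simulated data. Figures were drawn with matplotlib 3.10.9.

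The members and lists were chosen with earlier results of these data known. Named were all members, up to 4 called genes with the largest difference in each of the enzyme, cargo and exocytosis lists for DR+/+ against JB, JBlyp/lyp against F344lyp and BB against F344, the hormone genes, and the 5 genes most like the members. Of the genes the rule names for BB against F344, those of the lists are not printed for it, as that comparison shares the DR+/+ arrays. Alternatives were a replicate block, an eBayes trend, a filter on dim probe sets, repeated quantile normalization, only the groups compared, each array left out, the DR+/+ arrays left out, the group as a random block and, added later, the Gapdh and β-actin covariates.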

Additional observations from a re-analysis of the deposited data

How the results depend on the processing

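The counts of members called for DR+/+ against JB (8) and DR+/+ against F344 (8) stayed at 8 without each array in turn, and the first was 8 under every alternative run. For DR+/+ against F344 the Gapdh covariate left 2 calls, with Chga at -2.88, Chgb at -1.97, Scg3 at -1.73 and Scg5 at -1.54, while the β-actin covariate left 8. With the Gapdh covariate 0 members were called for BB against F344, 0 for JB against F344 and 0 for JBlyp/lyp against F344lyp, and in JB against F344 Chgb turned to -0.10 and Ptprn to 0.62 while Ptprn2 stayed at -1.62. With the β-actin covariate 1 member, Ptprn2, was called for JB against F344 and 1, also Ptprn2, for JBlyp/lyp against F344lyp, and 5 for BB against F344. All of these calls were lower, where 2.21%, 6.07% and 13.6% of all probe sets were called lower. The Gapdh covariate left few calls over all probe sets, 90 for DR+/+ against F344 and 8 for BB against F344. It left 1 for JB against F344 and 103 for JBlyp/lyp against F344lyp. For DR+/+ against JB the Gapdh covariate left 6103 and the β-actin covariate 2923. For DR+/+ against F344 the β-actin covariate left 9652.

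For BB against F344 the count was 4 without the DR+/+ arrays and 1 with the group as a random block, where 1.71% of all probe sets were called lower. Without DR+/+ the signs of Chgb (0.62), Scg2 (0.22), Scg3 (0.38) and Scg5 (0.32) turned. With only the groups compared, which leaves fewer arrays to estimate the spread, the count was 1 for JBlyp/lyp against F344lyp, 1 for JB against F344 and 1 for lyp in F344. Over all probe sets 2.97% were then called higher and 3.27% lower in the first, 6.07% and 5.19% in the second, and 6.64% and 3.76% in the third. Quantile normalization repeated gave 1 higher and 4 lower for BB against F344, where 16.2% of all probe sets were called higher and 17.4% lower. Leaving out single arrays changed the member counts for BB against F344, JBlyp/lyp against F344lyp and JB against F344. The number of calls over all probe sets changed as well. Counts for both lyp comparisons and their difference stayed as reported. Each such fit leaves 1 array in a group, so only sizes are given here. In BB against F344 Ptprn2 ran from -2.60 to -2.47 and Scg3 from -0.37 to -0.23. In JB against F344 Ptprn ran from -1.20 to -0.50 and Chgb from 0.36 to 0.76. In JBlyp/lyp against F344lyp Chgb ran from 0.60 to 0.73. Differences called neither as reported nor under the alternative in question changed sign 44 times. The cause was not tested for any of these.

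Replicate numbers were not taken to pair the samples. Deviations of same-numbered arrays correlated at -0.10 to 0.65 over 10 pairs of groups, with 5 under 0.1 and the highest for JBlyp/lyp and JB. With the replicate block the counts were 8, 8, 7, 3 and 2 for DR+/+ against JB, DR+/+ against F344, BB against F344, JB against F344 and JBlyp/lyp against F344lyp, as without it. Of all probe sets, in the same order, 17%, 18.8%, 18.4%, 6.53% and 9.08% were then called lower. Called higher were 14%, 16.9%, 17.8%, 7.83% and 8.1%.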
